A study of Danio rerio with 8 samples.

Results

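Many zebrafish genes carry no descriptive symbol and are known only by the genomic clone or the sequence record in which they were predicted. The genes described here are the 54 clone-named genes of the deposited table whose transcript was at least 4-fold higher in iqgap1 mutants than in wild type. A gene was taken as clone-named when its symbol held a colon, as in si:ch211-281l24.3, or was a pair of capital letters with 6 digits, as in BX469930.1. The genes were chosen by the library values themselves. The mean over the 4 mutant columns, as deposited, had to be at least 4 times the mean over the 4 wild-type columns and at least 10. Of the 1293 listed genes 552 were clone-named, and 54 of these met the rule. The same values that chose the genes give their fold changes, so their direction and size are a description and were not tested.

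The study compared whole zebrafish embryos at 53 hours post fertilisation in 2 groups of 4 RNA pools, one wild-type and one iqgap1-/-, the mutants being embryos that showed hemorrhage. A pool held 20 embryos by the design text, whereas the extraction protocol speaks of single larvae, and the difference was not resolved. No treatment is labelled, and the strain, the mutant allele and whether wild-type and mutant embryos came from the same crosses are not stated in the labels. Mutants without hemorrhage were not analysed here, so genotype and hemorrhage cannot be told apart.

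IQGAP1 is a scaffold protein that links the actin cytoskeleton to cell junctions and signalling proteins. The si: symbols come from clones sequenced at the Sanger Institute, with dkey, dkeyp, ch211, ch73 and ch1073 naming clone libraries. The zgc: symbols come from the full-length cDNAs of the Zebrafish Gene Collection, and the symbols of capital letters and digits are sequence records of single clones. Genes of this kind are often members of large, recently duplicated families, and reads from near-identical copies are hard to assign to 1 copy. For nearly all of the 54 genes the product is not annotated in the sources used here, so no role is given for them.

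The 54 genes comprised 24 of the 282 listed si: genes, 23 of the 195 with a sequence-record name, 6 of the 69 zgc: genes and sc:d217, the single listed gene of its prefix. As a share, 9.78% of the clone-named genes met the fold and level thresholds, against 3.51% of the 741 other listed genes (26 genes). Clone-named genes were also more often in the opposite class, with 14.86% (82 genes) at least 4-fold lower in the mutants against 7.15% of the other genes (53 genes). These shares describe a table that the authors had selected for differences between the same groups. The clone-named genes also had lower counts, with a median wild-type mean of 27.1 against 45.1 over all listed genes (normalized as given below). The shares were not compared at like levels. The plot of deposited means shows where the thresholds fell.

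**Figure D1:**
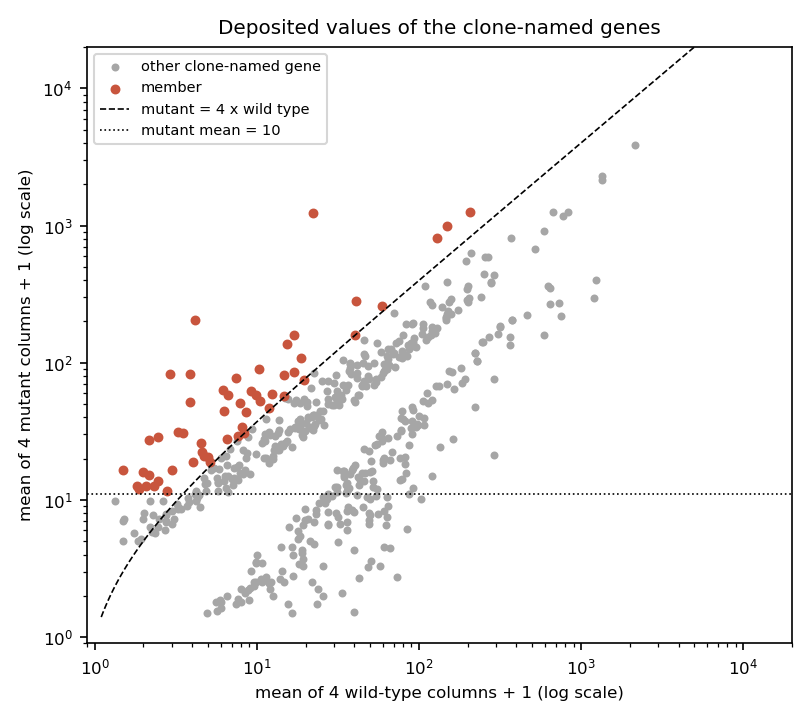
Mean of the 4 wild-type columns (x axis) against the mean of the 4 mutant columns (y axis) for the 552 clone-named genes, as deposited plus 1 on log scales, with members in red and the fold and level thresholds as lines. The 54 members lie above both lines and reach a ratio of 64.4.

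The genes nearest the thresholds were close to those just outside. The lowest ratios of deposited means inside the rule were 4.002 for si:dkeyp-115d7.2, 4.024 for si:ch211-106j21.6 and 4.065 for zgc:171220. Just outside stood si:dkey-7i4.10 at 3.95, BX927253.3 at 3.886 and si:ch211-106j21.2 at 3.859, so that a pair of genes from clone ch211-106j21 fell on either side. The lowest deposited mutant means inside the rule were 10.53 for si:ch211-209j12.1, 11.04 for si:ch211-127b16.6 and 11.55 for si:dkey-222h21.1. LO018315.7 at 8.88, si:ch73-226i7.1 at 8.85 and CR354610.2 at 8.77 had the ratio but not the level.

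The deposited columns are expected counts, estimated numbers of reads per gene, and all levels below are those counts divided by a size factor per pool (normalized counts). They are not scaled to gene length, so an order of genes by count is one of read numbers and not of transcript levels. The 54 genes had mutant means from 11.2 to 1376 normalized counts and wild-type means from 0.461 to 186. The mutant mean was over 100 in 11 of the 54 genes and over 1000 in 3. Their median wild-type mean was 5.22 and their median mutant mean 52.5, beside 45.1 and 54.3 over all listed genes. The normalized fold, mutant mean over wild-type mean, ran from 4.49 to 68.9 with a median of 8.48, and was over 8 in 28 genes, over 16 in 9 and over 32 in 5. The median fitted log2 fold change was 3.06, beside 0.73 over all listed genes and 1.15 over the 761 that the authors list as higher. In pools of whole embryos, more cells of a type and more RNA per cell cannot be told apart.

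For 49 of the 54 genes every mutant pool lay above every wild-type pool. The same held for 664 of the 761 genes that the authors list as higher. Over all 1293 listed genes, which include those listed as lower, the share was 51.4%. The edgeR quasi-likelihood test over the whole table could be run on 45 of the 54, the other 9 having counts too low for its filter. It called 41 of these 45 as higher at an adjusted p under 0.05. Of all 1126 genes tested, which include genes lower in mutants, it called 37.5% as higher. Because the rule used this contrast, and the filter favoured members high in every mutant pool, neither count is evidence for the genes chosen. The heat map of all members by pool shows the values behind these counts.

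**Figure D2:**
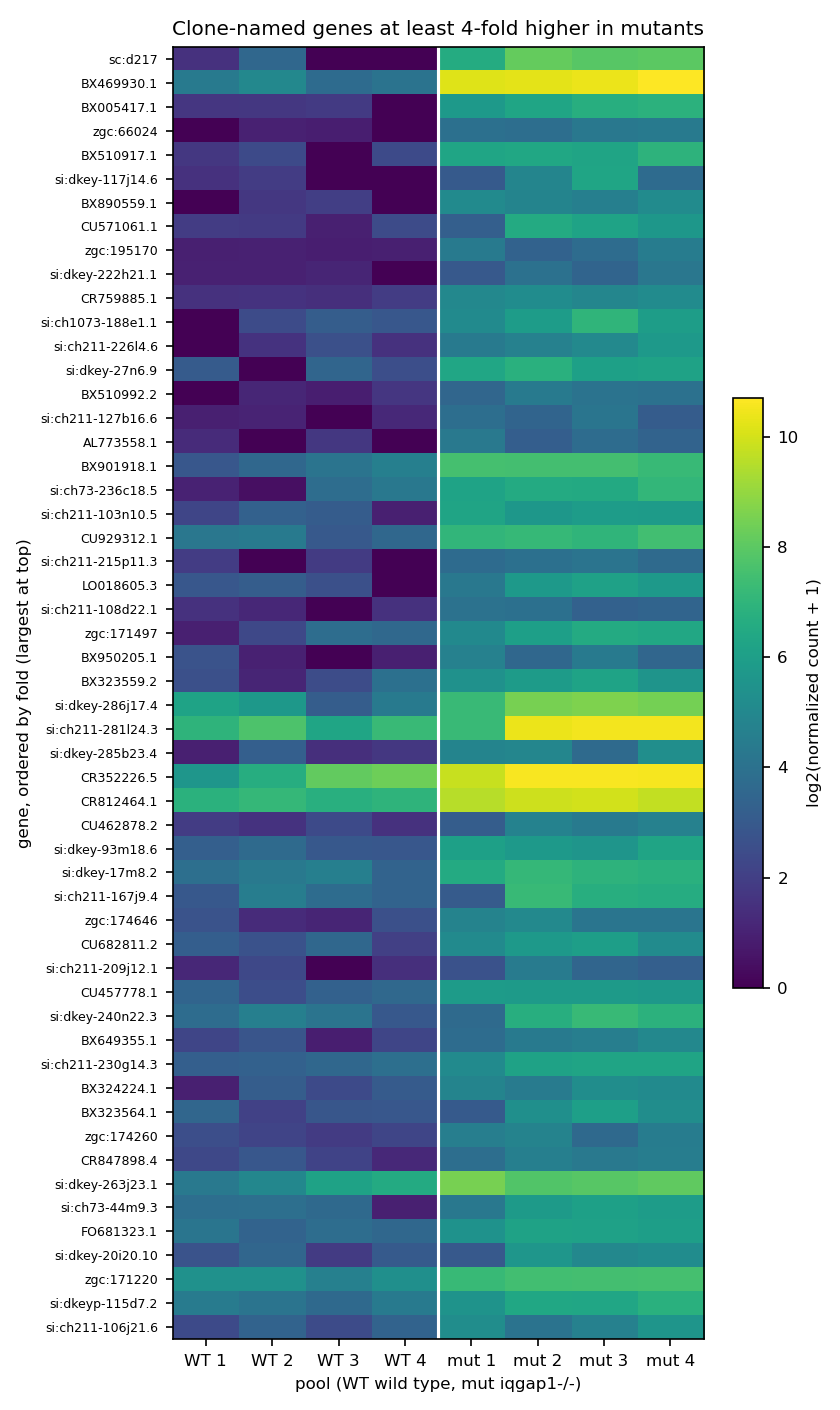
Level of each of the 54 members (rows, ordered by fold) in each of the 8 pools (columns), as log2(normalized count + 1) by colour, wild-type pools to the left of the white line. The dark cells on the left include 18 genes with a 0 in at least 1 wild-type pool, and mutant pool 1 is darker than the other mutant pools in several rows.

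CR352226.5, a predicted gene also named si:ch211-209l18.8, had the largest mutant mean in normalized counts, which are not per length. It had 48.4, 101, 275 and 318 normalized counts in wild-type pools 1 to 4 and 879.6, 1554, 1559 and 1512 in mutant pools 1 to 4. The groups did not overlap, but wild-type pools 1 and 2 were low against 3 and 4, and mutant pool 1 was low against the other mutants. The mean was 186 ± 131 for wild type and 1376 ± 332 for mutants (SD over 4 pools each), a fold of 7.42, or 8.31 without mutant pool 1. Its expected counts were whole numbers in all 8 pools.

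BX469930.1, also named si:ch211-114l13.11, had 20.2, 31.3, 12.5 and 15.7 normalized counts in the wild-type pools and 1148, 1222, 1337 and 1661 in the mutant pools. The groups were far apart, and no pool stood out within its group. The group means were 19.9 ± 8.19 and 1342 ± 227 (SD, n = 4 per group), a fold of 67.4. No expected count of this gene was a whole number in any pool, which happens when reads are divided between alike genes, so its level is uncertain to that extent.

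The third gene with a mutant mean over 1000, si:ch211-281l24.3, was uneven among the mutants. It had 125, 207, 76.4 and 153 normalized counts in wild type and 153, 1346, 1447 and 1478 in the mutants. Mutant pool 1 lay inside the wild-type range, while mutant pools 2 to 4 were close together and far above it. The fold was 7.88 over all pools and 10.1 without mutant pool 1. All 8 of its expected counts were whole, and the edgeR call was lost in 6 of the 8 fits that left out 1 pool.

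CR812464.1, also named si:ch211-282f6.1, was even within both groups. It had 112, 138, 106 and 124 normalized counts in wild type and 759, 933, 994 and 829 in the mutants. Every mutant pool was several times above every wild-type pool, and mutant pool 1 was only slightly the lowest. Group means were 119.7 ± 14.2 and 879 ± 105 (SD, n = 4 per group), a fold of 7.34.

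Below these 4 genes, si:dkey-286j17.4 had 72.2, 50.5, 7.9 and 19.8 normalized counts in wild type and 150.1, 357, 397 and 354 in the mutants. Here wild-type pools 1 and 2 were the high ones, the reverse of CR352226.5, and mutant pool 1 was again the lowest mutant. The gene si:dkey-263j23.1 had 18.8, 29.9, 71.2 and 93.1 in wild type and 357, 220.2, 241 and 267 in the mutants. In this gene wild-type pools 1 and 2 were low and mutant pool 1 was the highest, so mutant pool 1 was not low throughout. Their folds were 8.36, or 9.82 without mutant pool 1, and 5.09.

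Among the other genes of the 12 with the most normalized counts, zgc:171220 had 41.9, 41.9, 24.6 and 39.4 normalized counts in wild type and 145, 174, 179 and 184 in the mutants, a fold of 4.61. BX901918.1 (si:dkey-189n19.3) had 6.43, 10.8, 16.3 and 23.9 in wild type and 184, 180.4, 180.2 and 146 in the mutants, a fold of 12. CU929312.1 (si:dkeyp-91h6.2) had 17.7, 19.4, 7.03 and 10.9 against 131, 142, 128 and 175, a fold of 10.5. In these genes the 4 mutant pools were close together and the wild-type pools varied more for their level. The gene si:dkey-17m8.2 had 14.1, 19, 23.3 and 9.49 against 93, 139, 121 and 110.4, a fold of 7.04. Its groups did not overlap either. The other 2 of the 12, sc:d217 and si:dkey-240n22.3, are described with the largest folds and with mutant pool 1.

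**Figure D3:**
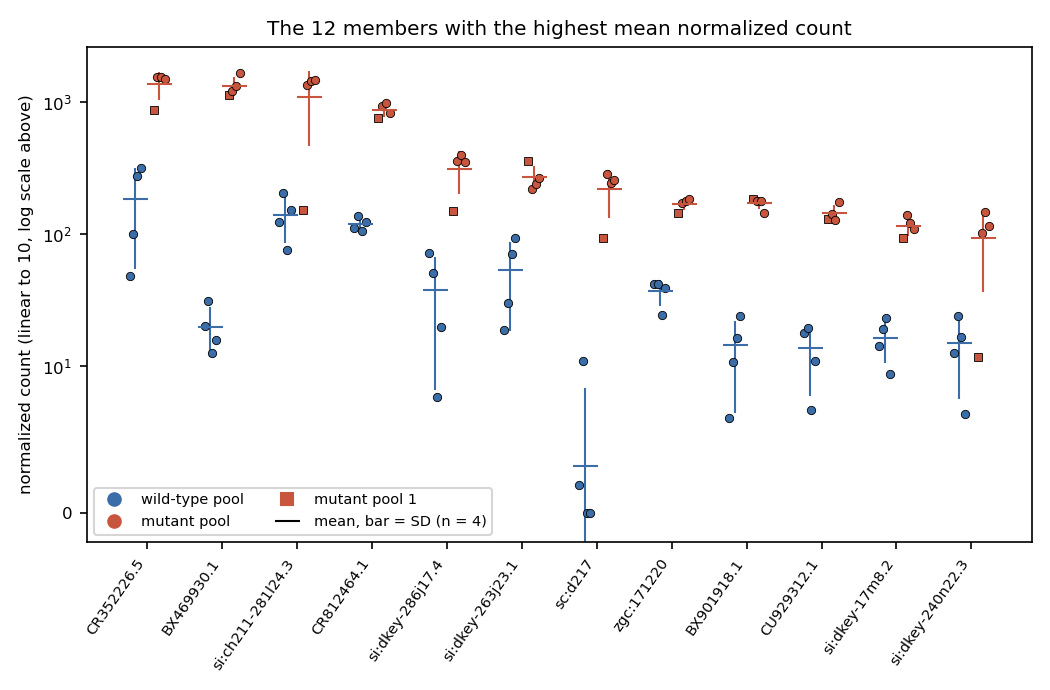
Normalized counts of the 12 members with the highest mean normalized count, on an axis that is linear to 10 and logarithmic above, with wild-type pools in blue, mutant pools in red, mutant pool 1 as a square, and the mean and SD (n = 4) as a dash and a bar. In si:ch211-281l24.3 the square at 153 sits among the wild-type pools, and so does the square at 11.8 in si:dkey-240n22.3.

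Of the 10 largest folds, all but that of BX469930.1 belonged to genes with few reads in wild type. The gene sc:d217 had 1.86, 11, 0 and 0 normalized counts in wild type and 93.7, 288, 244 and 257 in the mutants. Its fold was 68.9, and it became 356 without wild-type pool 2, which held most of the wild-type reads, and 82.1 without mutant pool 1. BX005417.1, also named si:dkey-240n22.2, had 2.22, 2.36, 2.55 and 0 in wild type and 52.3, 77.8, 105 and 118 in the mutants, a fold of 49.5. BX510917.1 (si:ch211-250o15.5) had 2.28, 4.34, 0 and 4.32 against 77.5, 80.8, 75.6 and 121, a fold of 32.5. In both the mutant pools lay far above wild type, at a level where the wild-type value rests on a few reads.

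The gene zgc:66024 is among the few with a product that can be named. Its Ensembl identifier carries the symbol ppt2a.5 and RefSeq lists its name as a synonym of ppt2a.1, both named for palmitoyl-protein thioesterase 2, a lysosomal thioesterase. It had 0, 0.997, 0.848 and 0 normalized counts in wild type and 14.6, 13.5, 18.3 and 20.1 in the mutants. The wild-type value rests on 2 reads in all, against 61 in the mutants. The fold of the summed counts was 35.7 with a 95% interval of 9.46 to 301 that covers counting error only. This interval, like those below, does not allow for the choice of the genes by these same counts. The fold of the means of zgc:66024 went from 36.1 to 58.8 without wild-type pool 2.

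BX890559.1 (si:dkey-52j6.1) had 0, 2.29, 2.99 and 0 normalized counts in wild type and 33.6, 27.5, 23.7 and 34.8 in the mutants, a fold of 22.7, or 39.1 without wild-type pool 3. The gene zgc:195170 had 0.931, 0.997, 0.848 and 0.922 against 19.5, 9.37, 12.8 and 21.2. These are 4 wild-type and 59 mutant reads, a fold of the summed counts of 17.3 with an interval of 6.39 to 65.4. Both genes were separate between the groups at low counts. The gene si:dkey-222h21.1 had 0.977, 0.997, 1.15 and 0 against 7.01, 14.8, 9.86 and 17.7, which is 3 wild-type and 46 mutant counts. Its fold of the summed counts was 17.9 with an interval of 5.77 to 90.2, and its fold of the means 15.8.

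A few of the largest folds came with wide spread among the mutants. The gene si:dkey-117j14.6 had 1.84, 2.71, 0 and 0 normalized counts in wild type and 7.08, 28.4, 77.8 and 12.5 in the mutants. Mutant pool 3 held most of the reads, and the fold of 27.6 became 14.1 without it and 51.2 without wild-type pool 2. CU571061.1 had 2.79, 2.49, 0.942 and 4.5 against 8.51, 93.3, 73.5 and 49.6, a fold of 21, or 26.9 without mutant pool 1. That pool was above the highest wild-type pool, at 4.5, but far below the other mutants. Both were among the 9 genes that the count filter left out.

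Over the 54 genes, 18 had a 0 in at least 1 wild-type pool and 6 had it in 2, but none had it in 3 or 4, and no gene was 0 in a mutant pool. Thus no gene of the set was absent from all of wild type at this depth. In 18 genes the wild-type mean was under 3 normalized counts. Besides the genes above, si:ch211-127b16.6 had 4 wild-type and 44 mutant counts. Its fold of the summed counts was 12.9 with an interval of 4.68 to 49.3, and its fold of the means 14.2. AL773558.1 (si:ch211-207m11.3) had 4 and 46, a fold of the summed counts of 13.5 with an interval of 4.91 to 51.5. Its fold of the means was 12.8.

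In 13 of the 54 genes, 4 of them given above, leaving out 1 pool moved the fold by over 1.5 times, and apart from mutant pool 3 in si:dkey-117j14.6 the pool was a wild-type one. Without wild-type pool 1 the fold went from 10.2 to 15.5 in si:ch211-215p11.3 and from 8.86 to 26.1 in BX950205.1. Without wild-type pool 2 it went from 7.85 to 16.1 in si:dkey-285b23.4 and from 6.37 to 11.1 in si:ch211-209j12.1. Thus BX950205.1, si:dkey-285b23.4 and si:ch211-209j12.1 each owed much of their wild-type mean to 1 pool. In si:ch211-215p11.3 wild-type pools 1 and 3 were alike, at 2.7 and 2.65 normalized counts, and pools 2 and 4 were at 0. Without wild-type pool 3 it went from 14.7 to 25.7 in si:ch211-226l4.6 and from 12.8 to 24.6 in AL773558.1. Without wild-type pool 4 it went from 14.3 to 22.4 in BX510992.2, from 11.7 to 20.1 in si:ch73-236c18.5 and from 8.6 to 15 in BX323559.2. In all of these the fold without the wild-type pool was larger. That direction was fixed, since leaving out 1 wild-type pool of 4 can move a fold by over 1.5 times only upward. Leaving out a low mutant pool cannot move it that far.

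The rule did not use the spread within a group, but it used the group means, by which the spread is divided here. The coefficient of variation, the SD over the mean of 4 pools, had a median of 0.643 over the 54 genes in wild type, beside 0.204 over all listed genes. Among the mutants the medians were 0.317 and 0.206. The wild-type counts of these genes are low, and low counts vary more from sampling alone, so the difference in spread was not separated from the difference in level. For both groups, the table had been selected by the authors' adjusted p, which admits a wider spread at a larger fold. The medians were not compared at like folds. Without mutant pool 1 the mutant medians were 0.2 for the 54 genes and 0.150 for all listed genes.

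Mutant pool 1 stood apart from the other mutant pools over the whole table. Between its expected counts and theirs the chi-square per degree of freedom, near 1 for sampling noise alone, was 17.85 to 20.32, against 2.52 to 3.98 among mutant pools 2 to 4. Wild-type pools 1 and 2 gave 4.8, and the other pairs of wild-type pools 8.82 to 12.81. No pair of pools in a group differed by as little as sampling noise. Mutant pool 1 had the highest sums of the mutants for the listed erythrocyte, neutrophil, macrophage and immediate early genes, at 215209, 5483, 18753 and 2436. Each sum is carried by its genes with the most counts. Leaving out mutant pool 1 moved the fold of no member by over 1.5 times. Leaving out a low mutant pool among 4 cannot raise a fold that far, so this does not show that the pool matters little. In si:ch211-281l24.3 the fold went from 7.88 to 10.1 without it.

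The share of genes that were low in mutant pool 1 was higher among the 54 than over all listed genes by some measures. Mutant pool 1 was the lowest mutant pool in 32 of them (59.3%). The share was 36.4% of all listed genes, 42.8% of all clone-named genes and 40.6% of the listed genes higher in mutants. Mutant pool 1 was under 0.5 times the mean of the other 3 mutants in 18 of the 54 (33.3%). In the same order, the other shares were 13.5%, 19.6% and 12.5%. Mutant pools 2, 3 and 4 were under 0.5 times the mean of their other 3 mutants in 1, 2 and 1 of the 54 genes. The median ratio of mutant pool 1 to the mean of the others was 0.701 over the 54 genes. It was 0.876 over all clone-named genes and 0.957 over all listed genes. These shares were not tested, since genes are not replicates and 1 pool carries them all. The table had also been selected by the authors' adjusted p, which a gene of small fold passes less readily when 1 mutant pool is low. The median fitted log2 fold change was 3.06 over the 54 genes and 0.73 over all listed genes. The shares were not compared at like folds.

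In 5 genes (9.26%) the groups overlapped, in each case through mutant pool 1 alone, which then lay inside the wild-type range. Overlap through that pool alone occurred in 6.03% of all listed genes and in 10.25% of the listed genes higher in mutants, so the share among the members was near that of the latter. The first of them is si:ch211-281l24.3, given above. The gene si:ch211-167j9.4 had 6.67, 22.4, 12.8 and 9.72 normalized counts in wild type and 7.52, 146, 103 and 97.5 in the mutants. The gene si:dkey-240n22.3 had 12.6, 23.9, 16.5 and 6.75 against 11.8, 103, 147 and 116. In both, mutant pool 1 was below the wild-type mean while the other mutants were several times above the highest wild-type pool.

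BX323564.1 had 10.4, 3.25, 6.2 and 6.57 normalized counts in wild type and 7.2, 39.7, 65.4 and 36.4 in the mutants. The gene si:dkey-20i20.10 had 5.59, 10.4, 2.61 and 7.06 against 6.83, 48.5, 30.9 and 35.4. Their mutant pool 1 was near the wild-type mean. Without mutant pool 1 the folds of these 4 genes went from 6.87 to 8.97, from 6.32 to 8.17, from 5.63 to 7.14 and from 4.74 to 5.97, in the order given. The 4 genes are those that passed the count filter but were not called, and without mutant pool 1 no member had overlapping groups. Over the 54 genes the median fold was 9.12 without it.

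**Figure D4:**
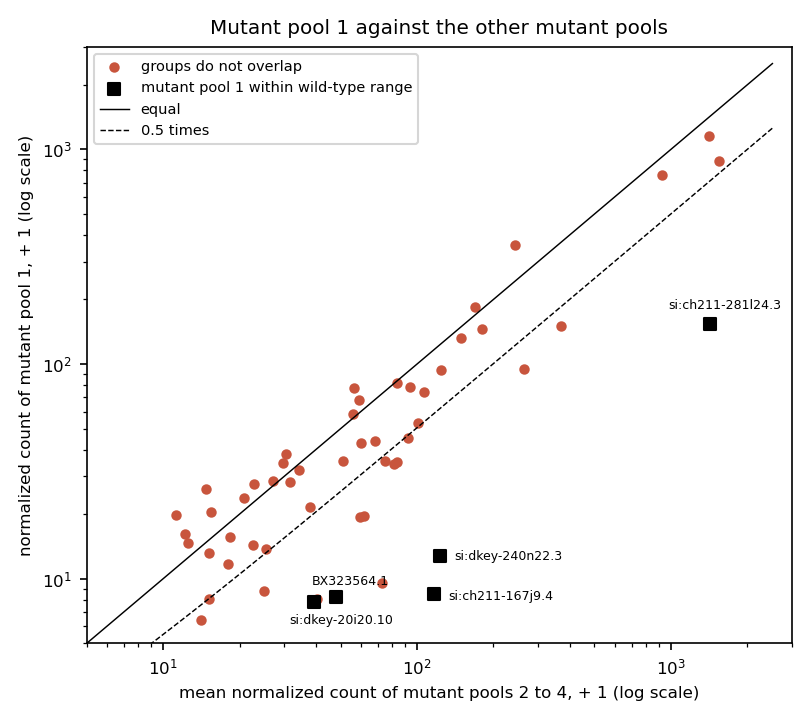
Normalized count in mutant pool 1 (y axis) against the mean of mutant pools 2 to 4 (x axis) for the 54 members, both plus 1 on log scales, with the lines of equality and of 0.5 times and the 5 members that overlap wild type as named black squares. In 18 members the point lies below the dashed line, and si:ch211-281l24.3 is the square at 153 in mutant pool 1.

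Wild-type pools 1 and 2 also differed from pools 3 and 4 in some genes. Over the whole table, pools 3 and 4 differed from each other too, at a chi-square per degree of freedom of 10.54. Other divisions of the wild-type pools were not counted. In 6 of the 54 genes (11.1%) the mean of wild-type pools 1 and 2 differed at least 4-fold from that of pools 3 and 4. The share was 2.6% of all listed genes (33 genes) and 3.4% of all clone-named genes. The median wild-type mean was 5.22 over the 54 genes and 45.1 over all listed genes. A few reads make such a difference at low counts, so the shares were not compared at like levels. The gene si:ch73-236c18.5 had 1.01, 0.359, 13.1 and 18.6 normalized counts in wild type and 72.8, 92.1, 89.5 and 134 in the mutants. The gene zgc:171497 had 0.931, 3.99, 13.3 and 11.1 against 33.2, 64.5, 90.8 and 84.8. In this pair of genes wild-type pools 1 and 2 were the low ones, and the mutants were above all of wild type.

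In the other 4 genes wild-type pools 1 and 2 were the high ones. These were sc:d217, si:dkey-117j14.6, si:dkey-286j17.4 and BX950205.1 (si:ch211-226h8.16). BX950205.1 had 5.59, 0.997, 0 and 0.913 normalized counts in wild type and 25.1, 10.8, 19.9 and 10.7 in the mutants. One pool made the difference here, since wild-type pool 2 was as low as pool 4. The labels give no batch, day or cross for the pools, so what the pools share was not tested.

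Position could be examined for a part of the set. RefSeq's table of the assembly GRCz12tu, another build than the danRer11 of the deposited values, holds 12 of the 54 genes by name, all 12 as protein-coding, and it was used for the order of genes only. One gene, si:ch211-226l4.6, lies on the chromosome of iqgap1, with 619 annotated genes between them. It had 0, 1.99, 5.09 and 1.84 normalized counts in wild type and 20.5, 25, 32 and 54 in the mutants, separate between the groups. Among these 12, no pair of members was within 2 genes of each other, and the nearest had 13 genes between them.

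Of the 12 genes 10 had another listed gene with at most 5 genes between, and of these 11 listed genes 7 were higher and 4 lower in the mutants by the authors' log2 fold change. Over all listed genes 761 were higher and 532 lower, and the split among neighbours was not tested. Next to si:ch211-103n10.5 lies mpeg1.1, which encodes a perforin-like protein of macrophages. The first had 3.72, 8.97, 7.64 and 0.922 normalized counts in wild type and 76.1, 50, 58.8 and 58.3 in the mutants. In the same pools mpeg1.1 had 132, 114, 97.5 and 104 against 83, 39.6, 52.4 and 59.3. These neighbours thus had opposite directions, without overlap in either gene.

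The same held for 2 other adjacent pairs. The authors' deposited table gives zgc:174260 a log2 fold change of 2.46 and its neighbour si:ch211-186e20.7 one of -2.30. The gene si:ch211-186e20.7 had 22, 16, 25.2 and 16.5 normalized counts in wild type and 6.05, 5.77, 1.28 and 2.17 in the mutants, and zgc:174260 had 4.9, 3.56, 2.67 and 3.71 against 22.9, 26.4, 11.5 and 21.6. Beside zgc:174646 (2.74 in that table) lies znf1147, a zinc finger gene by its name, at -1.10. In each pair all 4 mutant pools lay on the gene's own side of wild type.

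Other neighbours were higher together with the member. With 1 gene between, zgc:162971 stood at a log2 fold change of 1.81 and zgc:171220 at 2.21 in the authors' deposited table. The complement gene c4 stood at 2.53 and si:dkey-285b23.4 at 2.96, with 2 genes between. The potassium channel gene kcnj13 stood at 1.41 and si:ch211-281l24.3 at 2.98, also with 2 between. In mutant pool 1, where si:ch211-281l24.3 was at the wild-type level, kcnj13 had 432 normalized counts against 532 to 635 in the other mutants and 189 to 224 in wild type. The low value of mutant pool 1 was thus not shared to that extent by this neighbour.

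The wild-type pattern of zgc:171497 recurred in its neighbours. With 4 genes between, si:ch73-213k20.5 had 3.72, 8.97, 30.9 and 31.8 normalized counts in wild type and 65.3, 79.9, 74.8 and 55.4 in the mutants. With 5 between, fgfr1bl, a gene of the fibroblast growth factor receptor family by its name, had 23.3, 18.2, 52.1 and 39.1 against 108, 109.9, 95.3 and 90.3. Both were low in wild-type pools 1 and 2, as zgc:171497 was. The member si:ch1073-188e1.1, with 13 genes between it and zgc:171497, had 0, 4.42, 8.03 and 6.55 against 34, 58.7, 128 and 61.4. Here only wild-type pool 1 was clearly lower than the rest.

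Clone names link more of the genes to each other, without giving their order. Of the 54 members 11, on 10 clones, shared a clone with another listed gene, and of the 12 non-members on these clones 8 were higher and 4 lower in the mutants. Beside the 761 higher and 532 lower of all listed genes, this split was not tested either. The gene si:dkey-222h21.5 is counted both here and among the neighbours above. Clone dkey-240n22 holds 2 members, BX005417.1 and si:dkey-240n22.3. In mutant pool 1 the second was at wild-type level, as given above, while BX005417.1 at 52.3 was far above wild type. Genes of 1 clone thus differed in that pool. The member si:dkey-222h21.1 lies near a RefSeq gene of the clone of another member, si:ch73-236c18.5, so members not placed by name can be neighbours.

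On 3 clones a member shared the clone name with genes that were lower in the mutants. A shared clone name does not make genes adjacent, and 4 annotated genes lie between si:dkey-222h21.1 and si:dkey-222h21.5. The gene si:ch211-114l13.1, from the clone of BX469930.1, had 7.45, 7.6, 8.52 and 4.38 normalized counts in wild type and 1.75, 0, 0.652 and 2.12 in the mutants. The gene si:dkey-222h21.5, from the clone of si:dkey-222h21.1, had 11.9, 10.7, 11.8 and 13.1 against 2.06, 3.31, 1.48 and 0. In both, every mutant pool was below every wild-type pool, opposite to the member. The member si:dkey-27n6.9 stood at a log2 fold change of 3.80 in the authors' deposited table. From its clone, si:dkey-27n6.4 stood at -1.14 and si:dkeyp-4f2.1 at -1.80.

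**Figure D5:**
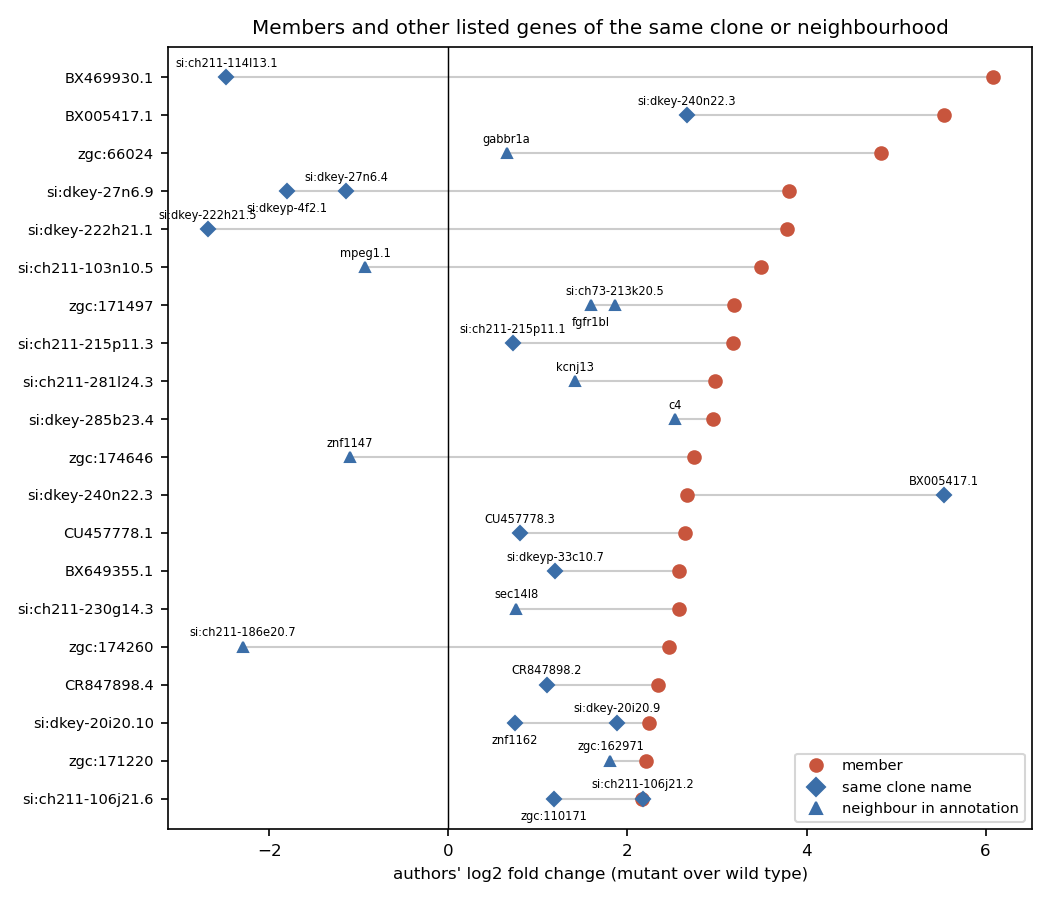
Deposited log2 fold change from the authors (x axis, positive where mutants are higher) of each member that has another listed gene on its clone or within 5 genes (red circles), with those genes as blue diamonds (same clone name) and triangles (neighbour in the annotation), labelled. The lines that cross 0 join a member to a lower gene, as BX469930.1 at 6.08 to si:ch211-114l13.1 at -2.48.

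How reads were assigned bears on many of these levels. Expected counts are whole where every read was assigned to 1 gene and fractional where reads were divided. Over the 54 genes 136 of 408 values above 0 were whole (33.3%), beside 39.2% over the clone-named genes and 56.5% over all listed genes. In 23 members (42.6%) no value was whole, beside 45.7% of the clone-named genes and 31.2% of all listed genes. In 12 members (22.2%) all values were whole, beside 28.1% of the clone-named genes and 45.4% of all listed genes. Those 12 include CR352226.5, si:ch211-281l24.3, zgc:195170 and si:ch211-103n10.5. The 23 include BX469930.1, CR812464.1, BX901918.1 and si:dkey-240n22.3, whose levels are uncertain to that extent.

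The rest of the table gives the setting. The iqgap1 transcript was lower in every mutant pool (902 to 1245 normalized counts) than in any wild-type pool (2115 to 2212), or -1.03 ± 0.12 on the log2 scale (SE, adjusted p = 0.000994 by the edgeR quasi-likelihood test). Summed levels of the listed markers differed between the groups. The sums hold only markers in a table selected for differences between these groups, so that selection favoured their separation. Markers outside the table could not be seen. Of 20 erythrocyte genes 19 were listed, all higher in the mutants and 17 called, with sums of 52531 to 85973 in wild type and 164168 to 215209 in the mutants. Of 10 neutrophil genes 6 were listed and called higher, with sums of 2231 to 2680.4 and 4340.3 to 5483. Of 10 macrophage genes 7 were listed, all lower and 6 called, with sums of 20792 to 27515 and 13205 to 18753, and of 8 immediate early genes 7 were listed, all higher and 6 called, with sums of 795.8 to 1061 and 1636 to 2436. Each sum is carried by its genes with the most counts. In the macrophage sums, mpeg1.1 had only 97.5 to 132 normalized counts in wild type and 39.6 to 83 in the mutants. None of the listed markers was at 0 in a pool. The part of these lists in the values of the 54 genes was not tested.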

How the data were processed

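Total RNA of whole zebrafish embryos was depleted of ribosomal RNA, primed at random and sequenced on an Illumina NextSeq, per the labels' protocols. Trimmomatic, STAR 2.7, RSEM and the build danRer11 are named in the submitters' processing notes. The annotation, the strand setting and the comparison tool were not given in these sources. Per the file headers, the deposited table of 1293 genes holds 8 library columns and the authors' log2 fold change, the same as a linear ratio, and p-values before and after adjustment. Its genes had been selected: the largest deposited adjusted p was 0.04997 and the smallest absolute log2 fold change 0.5856.

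The deposited library values are RSEM expected counts multiplied by 1 of 8 factors (0.9784 to 1.0252), in a cyclic order that starts at another column in each row. Dividing by the factors gave multiples of 0.01 for all 10152 values above 0, with no ambiguous row, and 56.5% were whole (within 0.005). The rule itself used the columns as deposited. Counts over the listed genes summed to 354272 to 552331 per library, which is not the libraries' depth, and the total depth is unknown. For the tests they were rounded to whole numbers.

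Size factors were medians of ratios within each group (mean of 50 or more, no 0). An offset between the groups (-0.231, log2) then matched the fitted to the authors' deposited log2 fold changes, 95.7% of 648 genes lying within 0.01. The scale between groups thus rests on the authors' values. Mutants and wild type were compared in edgeR 4.0.16 (R 4.3.3) by filterByExpr (minimum count 10, minimum total 15), glmQLFit and glmQLFTest. Of the listed genes 1126 passed the filter and 167 did not. Benjamini and Hochberg's adjustment ran over the 26889 genes the authors tested, with p = 1 for genes not listed. Scripts were tested on simulated data. DESeq2 1.42.0 and the other alternatives appear in the closing section.

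The members and lists were chosen with earlier results of these data known. Genes were named by rule: the 12 highest mean counts, the 10 largest folds, those nearest the thresholds, those whose pools 1 and 2 differ at least 4-fold from pools 3 and 4, and those with a pool set apart by Dixon's test. The other genes named by values were chosen after these were seen: those overlapping between the groups, moved over 1.5 times by 1 pool, on a few wild-type reads, or near another listed gene. The labels do not say whether same-numbered pools belong together, and the main fit did not pair them. Whether pools came from separate clutches is not stated, so p-values measure the spread between these pools, which may be technical. Intervals cover counting error only, by exact binomial (Clopper-Pearson) limits. They allow neither for the choice of genes by the same counts nor for reads divided between genes.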

Additional observations from a re-analysis of the deposited data

Results flagged for a closer look

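Each member's 4 values in each group were examined with Dixon's test for a pool set apart from the other 3, over 108 sets of 4 pools. It marked 9. The test's rate of 1 in 20 would give 5.4, but that rate holds for independent sets of normally distributed values. Many sets here hold a few reads, and all come from the same 8 pools, so 9 was not judged against 5.4. Of the 9, 3 concerned mutant pool 1 as the lowest. There si:ch211-281l24.3 had 153 normalized counts against 1346 to 1478 in the other mutants, CR352226.5 had 879.6 against 1512 to 1559, and si:ch211-230g14.3 had 34.2 against 70.5 to 76.1. Without that pool their folds went from 7.88 to 10.1, from 7.42 to 8.31 and from 6.04 to 6.97. Mutant pool 4 was marked in 2 genes, as the highest at 121 against 75.6 to 80.8 in BX510917.1 and as the lowest at 146 against 180.2 to 184 in BX901918.1. In wild type, pool 2 was the highest in sc:d217 at 11 against 0 to 1.86, and pool 3 the lowest in zgc:171220 at 24.6 against 39.4 to 41.9. Wild-type pool 4 was at 0 in BX005417.1, where the others had 2.22 to 2.55, and at 0 in si:dkey-222h21.1, where they had 0.977 to 1.15, so each of these marks rests on 2 or 3 reads per pool or fewer.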

How the results depend on the processing

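The scale between the groups rests on the authors' fold changes. RLE scaling of the listed genes shifted their log2 fold changes by a median of -0.51. The members' median log2 fold change was then 2.54 and 35 were called. With TMM, a median shift of -0.38, the values were 2.66 and 36, against 3.06 and 41. The listed genes called went from 422 higher and 330 lower to 113 and 465 with RLE and 162 and 451 with TMM. DESeq2 called 864 listed genes and 45 members, and no count filter gave 829 and 52. At an adjusted p under 0.01, 433 of 752 listed genes and 36 members were called. Same-numbered pools did not vary together (correlations of -0.03, 0.09, -0.25 and -0.12, no pool correlating best with its own number). These correlations do not settle whether the pools were paired. A fit with the replicate block called 544 listed genes and 40 members. The rule gave 51 members on recovered counts, 67 on normalized counts, 80 at 3-fold, 43 at 5-fold and 27 at a mutant mean of 50. Without 1 pool it gave 48 to 61, with 38 to 48 of the 54 called, 538 to 799 listed genes called and a median of 2.91 to 3.15. The median coefficient of variation of the members ran from 0.555 to 0.624 in wild type and from 0.2 to 0.321 in the mutants. Calls were lost most often in si:ch73-44m9.3 (7 of 8 pools left out), si:ch211-281l24.3 (6) and BX950205.1 (5). Counts of non-overlapping members, added after the data were seen, were 48 to 54. No gene named by rule changed direction in the settings run. The choice of genes at least 4-fold higher made this all but certain, so it says nothing about how stable they are.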
